A study of Macaca mulatta with 12 samples.

Results

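The genes of synaptic vesicle fusion were followed through the cell classes of the rhesus macaque (Macaca mulatta) amygdala, in RNA of single nuclei isolated from frozen tissue. Members were chosen by symbol alone: SYT, SYN, STX, STXBP, VAMP, SNAP, CPLX or RIMS followed by a digit, or a symbol that starts with RAB3, SV2 or UNC13. The rule found 82 of 19708 gene rows, of which 79 carried the symbol as row name and 3 (SYT15, SYT16 and STXBP6) were named through a reference table of gene IDs. They comprise 15 synaptotagmins, 15 syntaxins, 7 syntaxin-binding proteins, 7 VAMPs, 4 members of the SNAP-25 family, 4 complexins, 4 RAB3 GTPases, 3 RAB3 regulators, 3 RIMs, 3 SV2 proteins, 3 UNC13 proteins and 3 synapsins. The letters of the rule also took in 11 genes outside these families: the clathrin adaptor SNAP91 and 10 other RAB GTPases, RAB30, RAB33A, RAB33B, RAB34, RAB35, RAB36, RAB37, RAB38, RAB39A and RAB39B. RIMS1 and UNC13A matched no row by name and are not analysed here.

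All 12 labelled samples belong to 1 group, amygdala. Their titles number them as 3 sets of 4, read here as 3 specimens with 4 libraries each, so they are not 12 independent samples, and whether the barcode sets described below are these specimens is not stated. The labels name no treatment, strain or age. No label ties a nucleus to a sample, so the 26400 nuclei form 1 pool. Differences below are therefore descriptions, without a test and without an error between replicates. Barcodes carry 3 suffixes, called barcode sets here (9201, 8900 and 8299 nuclei, with 68 barcode sequences found in more than 1 set), which show whether a direction recurs but may be technical. After removal of 1862 presumed doublets, 24538 nuclei were clustered without the members, so no class was drawn by their levels, and clusters were named from marker genes. Each name below therefore means a cluster that resembles that cell type. Excitatory neurons numbered 11142 nuclei (median 7891.5 unique molecular identifiers, UMIs, per nucleus) and inhibitory neurons 4115 (5636). Among glia there were 5796 astrocytes (1736), 438 oligodendrocytes (1678), 367 oligodendrocyte precursors (2211) and 208 microglia (1127.5), and 1269 nuclei stayed unnamed. Levels are UMIs of a gene per 1000000 UMIs of a class (CPM), with exact 95% Poisson intervals that cover counting error only. In nuclear RNA, less of a transcript in the nucleus and less in the whole cell cannot be told apart.

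Transmitter release begins with vesicles tethered by synapsins and guided to the active zone by RAB3 GTPases and their RIM partners. UNC13 proteins prime the vesicle, syntaxin, SNAP-25 and VAMP zip into a SNARE complex under the control of syntaxin-binding proteins and complexins, and synaptotagmins, the calcium sensors, trigger fusion. SV2 proteins are glycoproteins of the vesicle membrane that bind synaptotagmin. Many family members serve other membrane traffic and are made by every cell.

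The neuron classes differed most in the SV2 proteins, which split between them, and less in the central fusion machinery. A gene counted as measured with 50 or more UMIs in 1 class and, at the higher of the levels, 10 or more expected in each, and as higher or lower at 2-fold or more. Of 82 members 75 were measured in this comparison. Of these, 8 were higher in excitatory than in inhibitory neurons (background over all measured genes 8.70%) and 9 were lower (background 8.38%), all with the same direction in the 3 barcode sets. As shares of the measured members these are 10.7% higher and 12% lower, near the background. The median log2 ratio of the members was -0.06, against -0.10 over all measured genes.

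SV2B, a vesicle glycoprotein, stood at 172 CPM in excitatory neurons (169 to 174) and 14.5 CPM in inhibitory neurons (13.0 to 16.1), a log2 ratio of 3.57. In the 3 barcode sets it had 174, 168 and 173 CPM in excitatory neurons and 14.9, 14.6 and 13.9 CPM in inhibitory neurons, so no set overlapped between the classes. Its relative SV2C showed the opposite split, with 6.70 CPM in excitatory neurons (6.19 to 7.24) and 127 CPM in inhibitory neurons (123 to 132), a log2 ratio of -4.25. SV2A, the member found at most synapses, had 22.3 CPM in excitatory and 34.7 CPM in inhibitory neurons, which is under 2-fold. At least 1 UMI of SV2B was seen in 55.8% of excitatory nuclei (54.8 to 56.7, exact Clopper-Pearson) and 8.12% of inhibitory nuclei (7.30 to 8.99), beside 6.54% of astrocytes. For SV2C the share was 3.94% of excitatory nuclei (3.59 to 4.32) and 26.3% of inhibitory nuclei (25.0 to 27.7), beside 0.880% of astrocytes. Nuclei with at least 1000 UMIs were also thinned to 1000, which left out 7 excitatory, 2 inhibitory and 504 astrocyte nuclei. SV2B was then seen in 12.6% of excitatory and 1.70% of inhibitory nuclei, the inhibitory share being below the 3.72% of astrocytes. SV2C was seen in 0.557% of excitatory and 10.6% of inhibitory nuclei after thinning, the excitatory share being no higher than the 0.586% of astrocytes.

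Among synapsins, which tether vesicles into a reserve pool, only SYN3 differed by 2-fold or more, with 102 CPM in excitatory neurons and 469 CPM in inhibitory neurons (log2 ratio -2.20). SYN1 had 107 CPM in excitatory and 74.8 CPM in inhibitory neurons, and SYN2 had 842 CPM in excitatory and 668 CPM in inhibitory neurons. The genomic span of SYN3 overlaps that of TIMP3, a secreted inhibitor of matrix proteases, which had 21.8 CPM in excitatory and 102 CPM in inhibitory neurons. How reads were shared between these overlapping genes was not tested.

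SYT5, SYT7, SYT10 and SYT17 were the synaptotagmins higher in excitatory neurons. SYT7, a high-affinity calcium sensor of asynchronous release, had 125 CPM in excitatory and 33.8 CPM in inhibitory neurons (log2 ratio 1.89). SYT5 had 121 CPM in excitatory and 47.7 CPM in inhibitory neurons (1.35), and SYT17 had 135 CPM in excitatory and 65.4 CPM in inhibitory neurons (1.05). SYT17 lay near the 2-fold limit, and its log2 ratio was 0.98 with presumed doublets kept, 0.94 as a mean over nuclei, 0.93 after thinning and 0.91 without the sub-clusters high in PROX1. SYT10, linked to the release of growth factors in olfactory neurons of mice, had 37.7 CPM in excitatory and 7.94 CPM in inhibitory neurons (2.25), a ratio that turned to -0.51 once the PROX1-high sub-clusters were left out. SYT6 was the one synaptotagmin lower in excitatory neurons, with 2.85 CPM there and 13.4 CPM in inhibitory neurons (-2.23). SYT1, the main sensor of fast release, was close between the classes, with 3233 CPM in excitatory and 3882 CPM in inhibitory neurons (-0.26).

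RNA of most SNARE genes differed by less than 2-fold between the neuron classes. SNAP25, a plasma membrane SNARE, had 559 CPM in excitatory and 384 CPM in inhibitory neurons (log2 ratio 0.54). STX1A, its syntaxin partner, had 30.9 CPM in excitatory and 17.2 CPM in inhibitory neurons (0.85), which came to 1.18 without the PROX1-high sub-clusters. The vesicle SNARE VAMP1 had 9.70 CPM in excitatory and 5.32 CPM in inhibitory neurons (0.87, or 1.13 as a mean over nuclei). VAMP2, its relative, had 15.6 CPM in excitatory and 22.1 CPM in inhibitory neurons (-0.51). VAMP3, a SNARE of endosome recycling, was the exception, with 7.83 CPM in excitatory and 16.6 CPM in inhibitory neurons (-1.09), and it fell short of 2-fold without the third barcode set (-0.98). No syntaxin reached 2-fold in the pool.

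Larger differences lay among genes of proteins that regulate the SNAREs. STXBP5L, or tomosyn-2, an inhibitor of SNARE assembly, had 3350 CPM in excitatory and 915 CPM in inhibitory neurons (log2 ratio 1.87). CPLX1, a complexin that clamps SNAREs, was lower in excitatory neurons, at 15.7 CPM, against 56.1 CPM in inhibitory neurons (-1.84). CPLX3 was also lower, but it rested on 17 UMIs in excitatory and 50 UMIs in inhibitory neurons. CPLX2 had 120 UMIs in all nuclei, and its log2 ratio of excitatory over inhibitory neurons took both signs, at 1.26, -0.54 and 0.28 in the 3 barcode sets.

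Measured factors of docking and priming were lower in excitatory neurons or under 2-fold apart. RIMS3, an active zone scaffold, had 8.82 CPM in excitatory and 45.9 CPM in inhibitory neurons (log2 ratio -2.38), whereas RIMS2 had 1042 CPM in excitatory and 1148 CPM in inhibitory neurons. RAB3B had 5.42 CPM in excitatory and 20.3 CPM in inhibitory neurons (-1.91). Its relative RAB3C had 287 CPM in excitatory and 544 CPM in inhibitory neurons (-0.92), and RAB3A had 17.6 CPM in excitatory and 23.4 CPM in inhibitory neurons. The priming proteins UNC13B and UNC13C were near equal, at 161 and 236 CPM in excitatory neurons and 140 and 208 CPM in inhibitory neurons. Of the RAB genes taken in by letters only, RAB38 was higher in excitatory neurons (14.5 CPM, against 1.69 CPM in inhibitory neurons), RAB36 likewise (11.2 CPM in excitatory, 4.76 CPM in inhibitory neurons), and RAB34 was lower (1.08 CPM in excitatory, 6.21 CPM in inhibitory neurons).

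**Figure D1:**
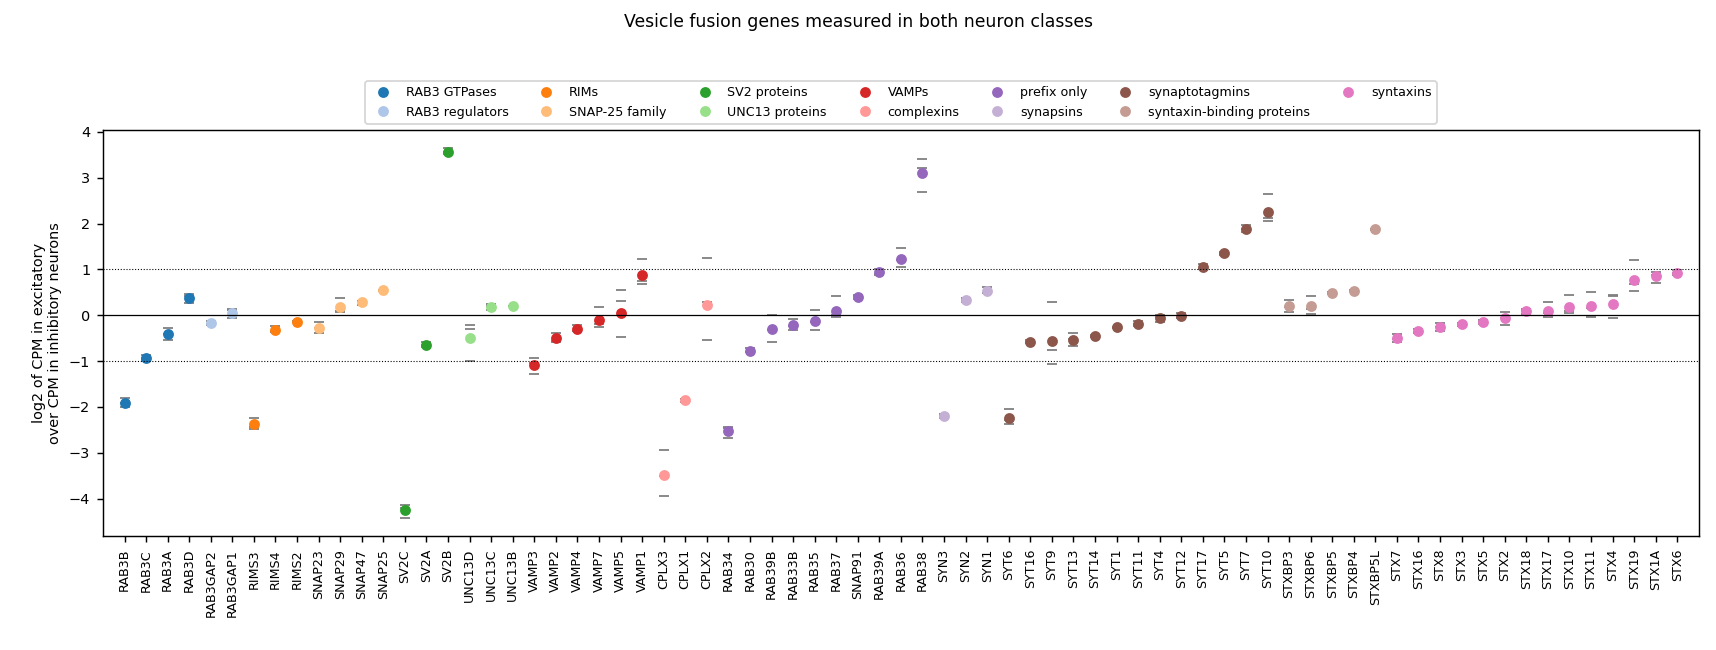
Log2 of the CPM in excitatory over the CPM in inhibitory neurons for 73 of the 75 measured members, grouped and coloured by family; grey ticks are the 3 barcode sets and dotted lines mark 2-fold. SV2B lies at 3.57 and SV2C at -4.25, while most points stay within the dotted lines.

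For comparison, 37 of 40 other genes of the vesicle cycle and the active zone were in the table and 35 were measured. Of these 5 were higher in excitatory neurons (14.3%, background 8.70%) and 2 lower (5.71%, background 8.38%). The vesicle effector RPH3A was lower, at 30.2 CPM in excitatory and 421 CPM in inhibitory neurons, as was BAIAP3, a relative of UNC13, at 3.17 CPM in excitatory and 33.2 CPM in inhibitory neurons. The calcium channel subunit CACNA1E was among the higher, at 950 CPM in excitatory and 342 CPM in inhibitory neurons.

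Clustered again, the excitatory neurons gave 15 sub-clusters of usable size, numbered by size. Of 73 measured members 21 reached 2-fold over the mean level of the rest in 1 or more (background 27.3%). That share, 28.8%, is near the background, and so was that of the partner genes, 10 of 35. Sub-clusters were told apart by markers: E1, E2, E4 and E6 were high in the transcription factor PROX1 and together held 5169 nuclei, 46.4% of the class. They were also shallower, with median UMIs of 6267.5, 6420, 4651.5 and 5688, against 7532 to 12481.5 in the other 11.

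SYT10 set the PROX1-high sub-clusters apart, at 145 CPM in E1, 88.5 CPM in E2, 114 CPM in E4 and 32.8 CPM in E6, whereas the other 11 ran from 1.40 to 23.4 CPM. SV2B went the other way, with 27.3 CPM in E4 to 65.2 CPM in E6 across the 4, against 86.8 CPM in E15 and 151 to 272 CPM in the remaining 10. All 4 therefore lay above the highest inhibitory sub-cluster, at 20.5 CPM, and below the other excitatory sub-clusters. UNC13B showed the same split, at 68.9, 76.3, 86.0 and 109 CPM in the 4 and 147 to 324 CPM elsewhere. STXBP5L was at 4154 to 4892 CPM in these 4 and at 4770 CPM in E10, which was marked by RGS14, and at 1704 to 3684 CPM in the others. STX1A was lowest in E1, E2 and E4, at 11.6, 16.2 and 11.5 CPM, while E13 had 18.4 CPM and the other sub-clusters more.

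SYN3 was high in a few other sub-clusters. It reached 817 CPM in E11 (no subtype marker at 2-fold), 505 CPM in E15 (HTR1F and TSHZ2), 369 CPM in E14 (CHRM2, FOXP2 and TLE4), 303 CPM in E13 and 208 CPM in E5, and lay between 10.3 and 59.8 CPM in the other 10. TIMP3 moved with it, at 153, 76.5, 57.3, 43.2 and 43.1 CPM in those 5 and 4.37 to 17.5 CPM in the other 10. SV2C reached 2-fold over the rest in 3 excitatory sub-clusters, with 41.9 CPM in E11, 29.7 CPM in E13 and 17.2 CPM in E6. E14 stood out for CPLX1, at 96.5 CPM (79.0 to 117) against at most 40.9 CPM in the other sub-clusters, and for RIMS2, at 2158 CPM. SYT17, in contrast, was lowest there, at 11.8 CPM, and highest in E5, at 253 CPM. RAB3C was highest in E12 (CARTPT and UGT8), at 678 CPM. E10 led for STXBP5, or tomosyn-1, at 1041 CPM and for RAB38 at 59.3 CPM. E15, with only 72 nuclei, had 35.7 CPM of RAB3B (22.1 to 54.6) and 34.0 CPM of RIMS3 (20.8 to 52.5), the highest of the excitatory sub-clusters in both, and the lowest level of UNC13C, at 52.7 CPM. Some of these leads depended on a setting. With presumed doublets kept, the log2 ratio of the leading sub-cluster over the mean of the rest was 3.70 for SYN3 (2.84 in the pool) and 1.76 for CPLX1 (2.50). After thinning it was 1.19 for SV2C (2.83) and -0.97 for RAB3B (2.50). At 1000 UMIs per nucleus, the 72 nuclei of E15 fall short of the 10 expected UMIs of RAB3B that a measured gene needs. The -0.97 is therefore not read as a reversal of its lead there.

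Other members were flatter. The highest excitatory sub-cluster exceeded the lowest by 1.67 times for SYN1 and by 1.30 times for SYT11. SYT1 and SNAP25 spanned 3.02 and 3.01 times, and the lowest of both was E4, at 1517 CPM and 317 CPM. For SYN3 the same ratio was 79.5 and for SYT10 103.

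**Figure D2:**
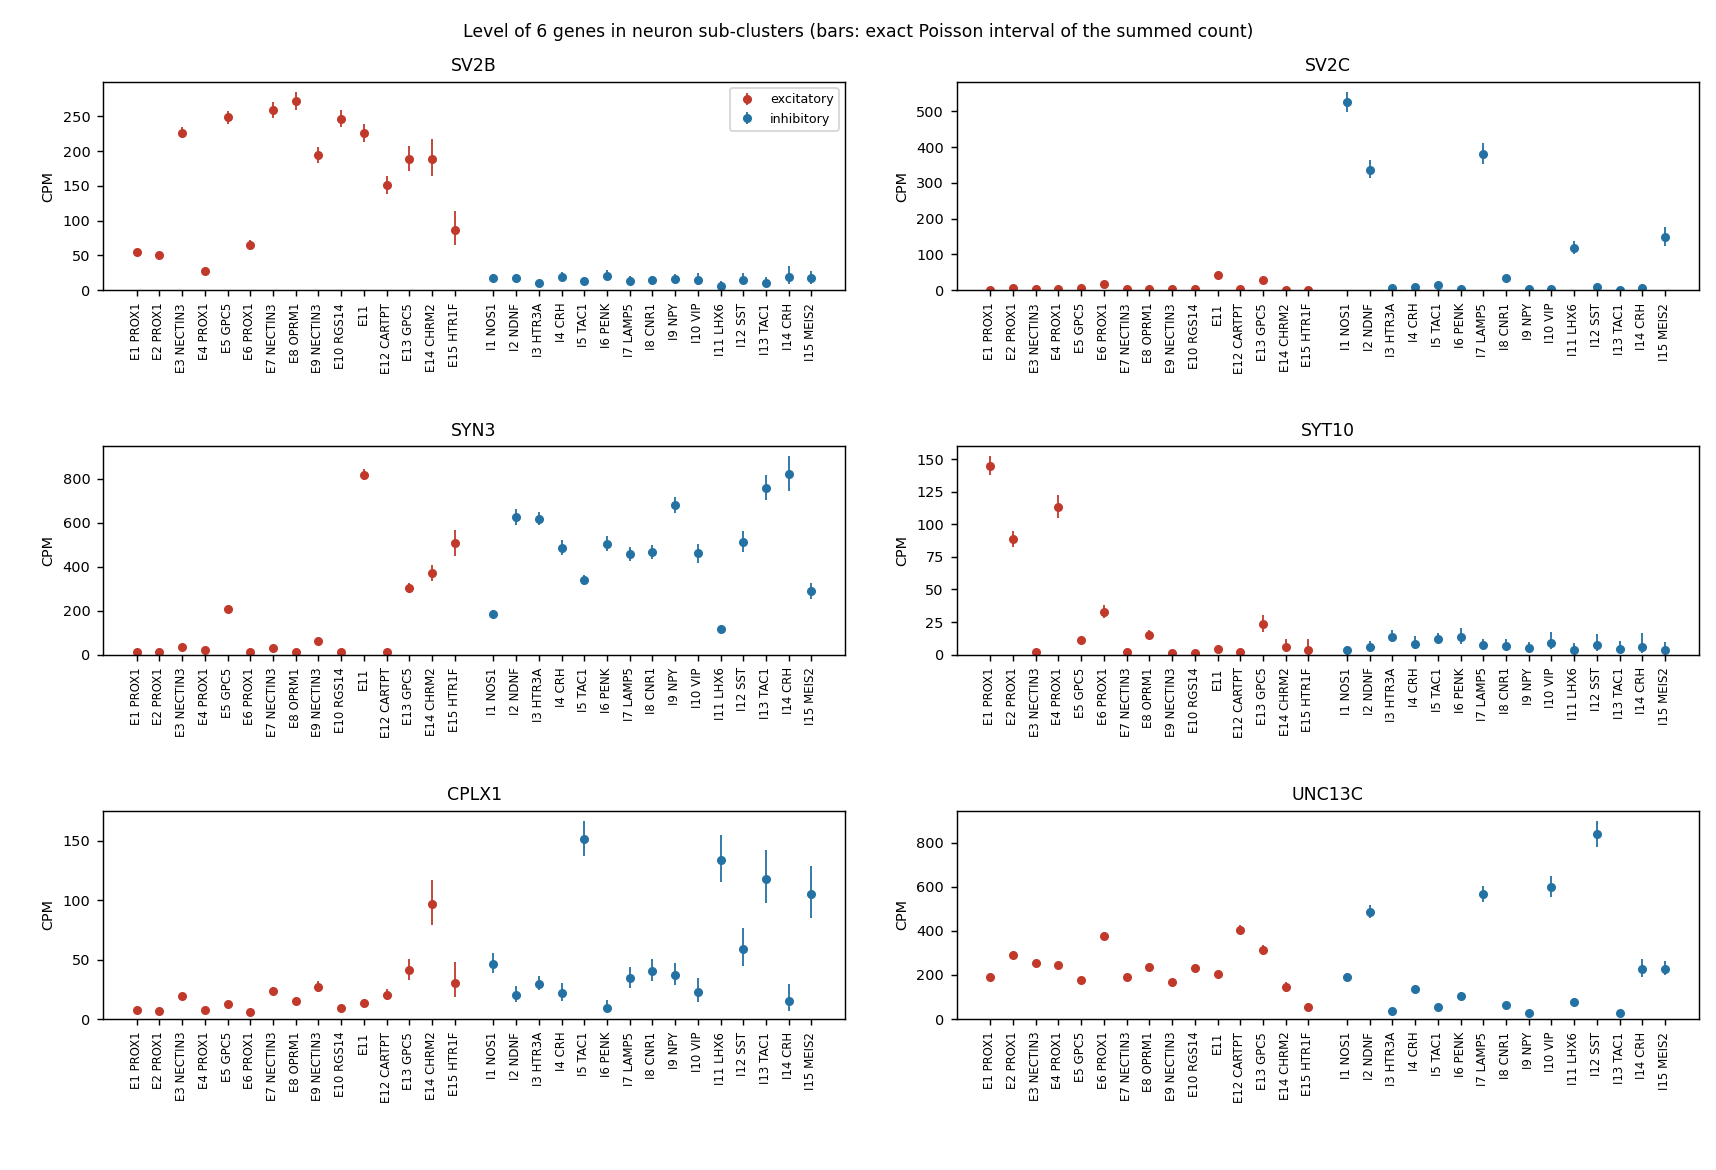
CPM of 6 members in 15 excitatory (red) and 15 inhibitory (blue) sub-clusters, each labelled with its leading subtype marker where one reached 2-fold; bars are exact Poisson intervals of the summed count. SYT10 is high in E1, E2 and E4, where SV2B is low, and SV2C and UNC13C are each high in a few inhibitory sub-clusters.

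The inhibitory neurons also gave 15 sub-clusters, and 11 of 67 measured members (16.4%) reached 2-fold over the mean level of the rest in 1 or more (background 23.3%). Partner genes came to 9 of 35. SV2C was concentrated in few of them. It had 526 CPM in I1 (NOS1 and LAMP5), 381 CPM in I7 (LAMP5, NOS1 and CCK) and 337 CPM in I2 (NDNF, LAMP5 and RELN), followed by 148 CPM in I15 (MEIS2) and 118 CPM in I11 (LHX6), and from 1.05 to 32.9 CPM in the other 10. The 3 highest were those that carried LAMP5 among their leading markers.

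UNC13C, which primes vesicles, varied less widely than SV2C. It had 840 CPM in I12 (SST and NPY), 600 CPM in I10 (VIP and ADARB2), 566 CPM in I7 and 487 CPM in I2, and 25.5, 29.5 and 37.6 CPM in I9 (NPY and SST), I13 (TAC1 and SST) and I3 (HTR3A and CNR1). Sub-clusters that shared SST as a marker thus lay at both ends of the range. CPLX1 was highest in I5 (TAC1) at 152 CPM, I11 at 134 CPM, I13 at 118 CPM and I15 at 105 CPM, and lowest in I6 (PENK) at 9.59 CPM. The intervals of I5 and I11 overlap.

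SYT6 stood far higher in I3 than elsewhere, at 87.4 CPM (77.3 to 98.5), while no other inhibitory sub-cluster passed 11.5 CPM. RAB3B was also highest there, at 45.6 CPM. RIMS2 was highest in I2, at 2385 CPM, and so was CPLX3, at 16.0 CPM. RIMS4, a short RIM, was highest in I11, at 93.1 CPM. SYN3, high in the class as a whole, ranged from 116 CPM in I11 to 821 CPM in I14 (CRH). SYT1 ranged from 1687 CPM in I4 to 5336 CPM in I1. SYT17 was lowest in I15 at 3.39 CPM and in I9 at 10.3 CPM, and highest in I14 at 146 CPM. SV2B was low throughout, between 6.65 and 20.5 CPM.

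**Figure D3:**
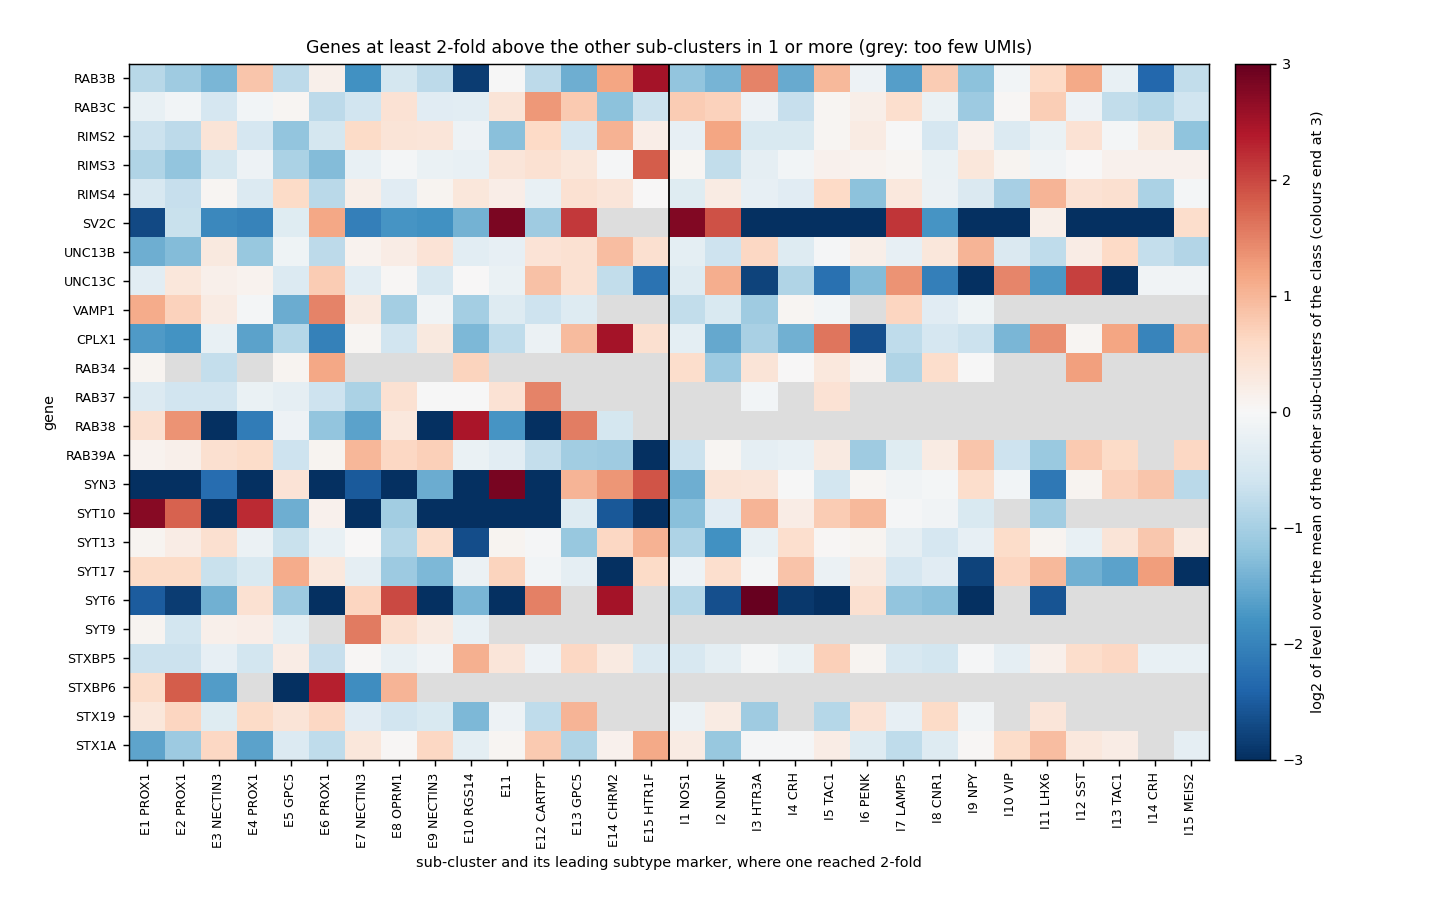
Log2 of the CPM in each of 30 neuron sub-clusters over the mean CPM of the remaining ones of its class, for the 24 members that reached 2-fold in 1 or more; red is higher, blue lower, grey marks too few UMIs, and colours end at 3 on either side. Most columns hold few red cells, and SYN3, SYT10, SV2C, UNC13C and SYT6 carry the strongest colours.

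Neurons were then set against glia, as the mean CPM of the neuron classes over the mean of astrocytes, oligodendrocytes, oligodendrocyte precursors and microglia. Of 77 measured members 18 were higher in neurons (background 10.6%), 17 of them in all barcode sets, and 11 were lower (background 17.0%), 10 of them in all sets. The count of lower members was 6 after thinning and 6 without barcode set 3. The median log2 ratio was 0.07, against -0.19 over all measured genes. Of the 35 partner genes measured, 19 were higher in neurons and 1, SYNGR2, was lower.

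The members higher in neurons included many of regulated release. SYT1 averaged 3558 CPM in neurons and 1319 CPM in glia (log2 ratio 1.43), and RIMS2 1095 CPM in neurons and 453 CPM in glia (1.27). SYN2 averaged 755 CPM in neurons and 226 CPM in glia (1.74), and RAB3C 416 CPM in neurons and 99.4 CPM in glia (2.06). The largest ratios were those of RAB3B (3.38) and SV2C (3.21). SNAP25, at 0.90, stayed below 2-fold. Members lower in neurons included STXBP3, or Munc18-3, which acts in general secretion (31.6 CPM in neurons and 71.8 CPM in glia), STXBP4 (56.1 CPM in neurons and 118 CPM in glia) and RAB30, a Golgi GTPase (51.1 CPM in neurons and 112 CPM in glia). RAB34 averaged 3.65 CPM in neurons and 23.7 CPM in glia. The synaptotagmins SYT4 and SYT9 were also among the lower members. SYT4 averaged 18.7 CPM in neurons. Its level was 2.06, 1.94, 1.67 and 2.34 times that in astrocytes, oligodendrocytes, precursors and microglia. SYT9 averaged 2.37 CPM in neurons and had 10.9 times that in oligodendrocytes, against 1.02, 2.03 and 1.15 times in astrocytes, precursors and microglia. VAMP2 (-0.86) and SNAP23 (-0.73) were lower without reaching 2-fold.

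RNA of genes held to be neuronal was also counted in the glial classes, and how far neuronal RNA sets the glial levels was not tested. The sum of 12 genes held to be neuronal was 2782 CPM in excitatory and 1594 CPM in inhibitory neurons, and it was 769 CPM in astrocytes, 657 CPM in oligodendrocytes, 691 CPM in oligodendrocyte precursors and 1604 CPM in microglia. As a median over the 12, the level relative to the mean of the neuron classes was 0.518 in astrocytes, 0.404 in oligodendrocytes, 0.463 in precursors and 0.928 in microglia. RBFOX3, a nuclear protein of neurons, was the lowest of the 12 in astrocytes (0.078), oligodendrocytes (0.064) and precursors (0.049) and stood at 0.527 in microglia, while the neurofilament genes NEFL and NEFM exceeded their neuronal level in all 4 glial classes. The sum and the median were highest in microglia, but the summed level of 7 inhibitory neuron markers was lowest there, at 764 CPM, against 2888 CPM in astrocytes, 3039 CPM in oligodendrocytes and 2609 CPM in precursors. Without thinning, SYT1 was seen in 74.0% of microglia and 75.7% of astrocytes, which differ in depth (median 1127.5 and 1736 UMIs). Its CPM relative to the mean of the neuron classes was 0.436 in microglia and 0.244 in astrocytes.

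Each glial class was compared with the mean of the other 3. Oligodendrocyte precursors had 5 of 57 measured members higher (background 6.42%) and 8 lower (background 14.8%). All 5 higher and 7 of the 8 lower members kept their direction in all 3 barcode sets. Without barcode set 1 the count of higher members was 2, and without set 2 it was 3, while the count of lower members was 5 without set 2 and 5 without set 3. SYN3 led, at 675 CPM in precursors (620 to 733), against 83.8 CPM in astrocytes, 24.6 CPM in oligodendrocytes and 30.1 CPM in microglia, a log2 ratio of 3.87 over their mean that stayed between 3.73 and 3.98 when each barcode set was left out. It was seen in 66.5% of precursor nuclei (61.4 to 71.3) and in 3.88% of oligodendrocytes (2.28 to 6.14), and after thinning in 42.9% and 1.98%. TIMP3, which overlaps it, had 250 CPM in precursors and 422 CPM in astrocytes beside 7.76 CPM in oligodendrocytes, 32.8 CPM in microglia and 72.6 CPM in committed precursors. RIMS2 was next, at 818 CPM in precursors (757 to 881) and 247, 273 and 473 CPM in astrocytes, oligodendrocytes and microglia. Committed precursors, 102 nuclei between precursor and oligodendrocyte in their markers, had 169 CPM of SYN3 and 311 CPM of RIMS2.

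Oligodendrocytes had 1 of 56 measured members higher (background 7.97%) and 6 lower (background 20.6%). The higher one was STX4, a syntaxin of the plasma membrane, at 25.9 CPM (15.8 to 40.0) from 20 UMIs, while precursors had 6.0 CPM, astrocytes 7.15 CPM and microglia 16.4 CPM, a level inside the interval of oligodendrocytes. Committed precursors had 51.9 CPM of STX4 (29.0 to 85.6). SYT9 was also at 25.9 CPM in oligodendrocytes and at most 4.80 CPM in the other glial classes, below the UMI limit for a comparison.

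Astrocytes had 3 of 63 measured members higher (background 11.3%) and 5 lower (background 9.75%). All 3 were RAB genes: RAB30 at 227 CPM (218 to 237) against 104, 80.4 and 38.3 CPM in oligodendrocytes, precursors and microglia, RAB34 at 63.3 CPM against 1.29, 19.2 and 10.9 CPM, and RAB36 at 14.0 CPM. None belongs to the fusion machinery itself.

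Microglia had 10 of 47 measured members higher (background 15.4%) and 3 lower (background 12.6%). Of the 10, 9 kept their direction in all 3 barcode sets, as did all 3 lower members. The 10 became 3 after thinning, which left out 68 of the 208 microglia. Fewer UMIs were then left to pass the limit, and how many of the 10 were still measured is not given. STX7, a SNARE of late endosomes and lysosomes, had 216 CPM (171 to 269) in microglia and 61.1, 64.7 and 55.2 CPM in astrocytes, oligodendrocytes and precursors. RAB39A, a GTPase of endolysosomal traffic, had 126 CPM (92.2 to 168) in microglia and 10.3, 7.76 and 18.0 CPM in the same classes. Both exceeded excitatory and inhibitory neurons too, where STX7 had 55.2 and 78.1 CPM and RAB39A 31.7 and 16.6 CPM. Of the other 8, 7 were lower in microglia than in excitatory neurons: STXBP5L had 2025 CPM in microglia and 3350 CPM in excitatory neurons, SYT7 had 79.4 CPM in microglia and 125 CPM in excitatory neurons, and SV2B had 76.6 CPM in microglia and 172 CPM in excitatory neurons. Against inhibitory neurons 5 of the 8 were higher in microglia, these 3 among them, at 915 CPM for STXBP5L, 33.8 CPM for SYT7 and 14.5 CPM for SV2B in inhibitory neurons. The part of neuronal RNA in these values was not tested. RAB37 had 16.4 CPM in microglia, from 6 UMIs, and spans the CD300 receptor genes, of which CD300LF and CD300LD each had 24.6 CPM there.

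**Figure D4:**
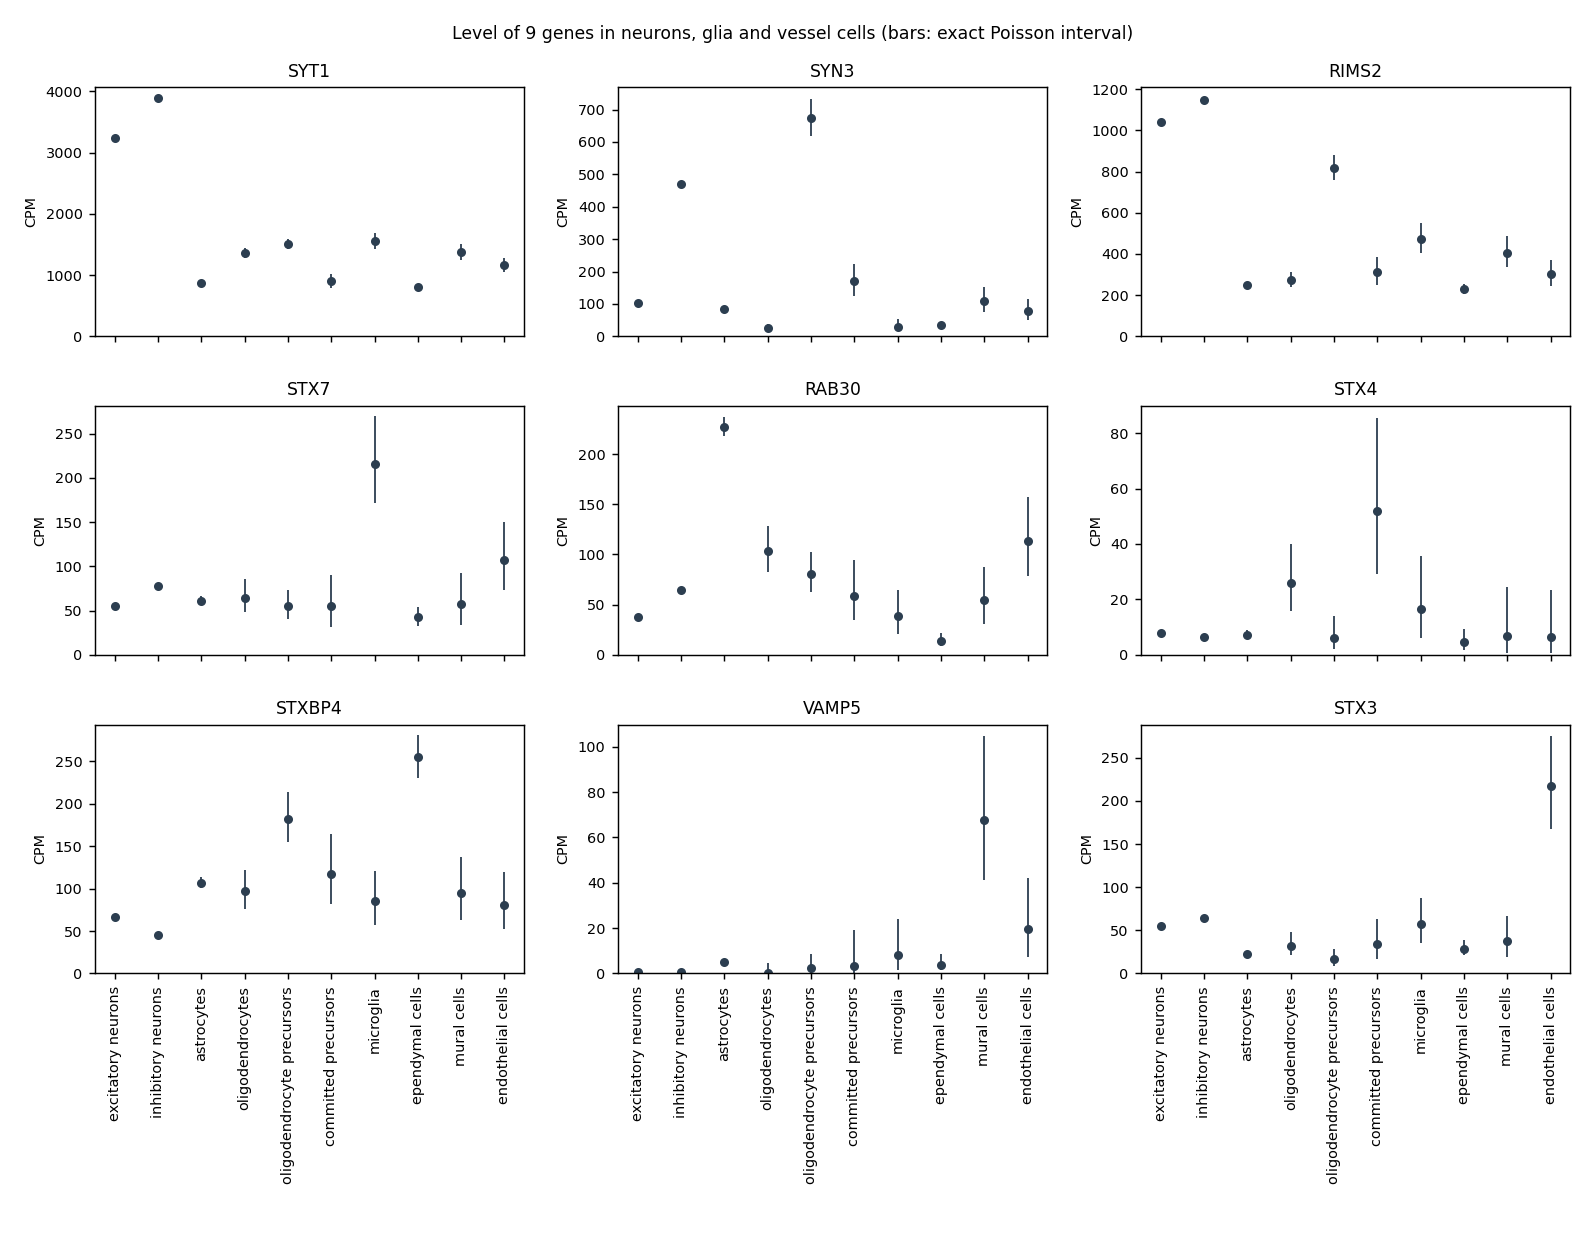
CPM of 9 members in 10 cell classes, with exact Poisson intervals as bars. SYT1 is highest in both neuron classes, SYN3 in oligodendrocyte precursors and inhibitory neurons, STX7 in microglia, RAB30 in astrocytes, STXBP4 in ependymal cells, VAMP5 in mural cells and STX3 in endothelial cells.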

How the data were processed

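The authors deposited a table of unnormalised UMI counts, all whole numbers, with 151526883 UMIs in 26400 nuclei. Per the submitters' processing notes, fastp and Cell Ranger 3.0.0 were used and GRCh38 was named; row names of macaque Ensembl form leave the annotation unsettled, so no coordinates are given. Members, lists and settings were chosen with earlier results of these data known. Every member at least 2-fold different in the same direction in all barcode sets, and the best known genes of each family, could be named, with up to 3 leading members a sub-cluster; other sub-cluster levels were named after their values were seen.

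The highest Scrublet scores were removed at 0.8% per 1000 nuclei in each barcode set. Members and partner genes were held out, and clusters came from 30 principal components of 2000 variable genes, with 15 neighbours per nucleus and a Leiden resolution of 0.5 (scanpy 1.11.5, python-igraph 0.11.9), with no batch correction. Naming thresholds were set after the data were seen: GAD1 plus GAD2 over 300 CPM for inhibitory neurons, SLC17A7 over 75 CPM and RBFOX3 over 600 CPM for excitatory neurons, and for other classes a mean log2 marker ratio over 2 with a lead of 1. A cluster whose median doublet score passed 0.06 was not named. Counts were summed per class and scaled to CPM, and a count of 0 was set to 3 for ratios. Thinning drew 1000 UMIs from each nucleus that had at least that many and left out the others. Those left out included 504 astrocytes, 34 oligodendrocytes, 8 oligodendrocyte precursors and 68 microglia. Intervals of shares are exact Clopper-Pearson ones and cover counting error only. Sub-clusters with under 20 nuclei in any barcode set were left out (1, with 24 nuclei). The fold computation was tested on simulated data. Of 81 members in a reference gene table, 10 overlap another gene of the count table. The values of 2 members are not reported here.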

Additional observations from a re-analysis of the deposited data

How the results depend on the processing

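No paired analysis was possible because the nuclei form 1 pool and no test was run. Opening all genes to the clustering or keeping presumed doublets left every count of members within 1.5 times. Leaving out the PROX1-high sub-clusters did so too for the 5 counts taken in that setting. The remaining settings moved some counts, and the cause was not tested unless named. At a fold of 1.5, chosen after seeing the data, 13 members were higher in excitatory neurons (8 at 2-fold). SYT10 turned to -0.51 between neuron classes without PROX1-high sub-clusters. Members lower in neurons than glia came to 6 after thinning and 6 without barcode set 3 (11 in the pool). With 10 UMIs as the limit, more members were measured: astrocytes had 5 higher and 11 lower (3 and 5), oligodendrocytes 6 and 11 (1 and 6), precursors 11 higher (5), microglia 22 higher (10), and 24 members were higher in an inhibitory sub-cluster (11). Thinning, which left out 34 oligodendrocytes and 68 microglia, gave oligodendrocytes 3 higher and microglia 3. The mean of nucleus CPM gave microglia 5 higher and 5 lower (3). Precursors had 2 higher without set 1, 3 higher and 5 lower without set 2, 5 lower without set 3 and 4 lower at Leiden resolution 1.0 (8), where 18 members were higher in an inhibitory sub-cluster. The leading excitatory sub-cluster of RAB3B had a log2 ratio of -0.97 after thinning (2.50 before), but E15, which led before, was too small to be measured for RAB3B after thinning. SYN3 in its leading excitatory sub-cluster had 3.70 with doublets kept (2.84), CPLX1 1.76 (2.50), and SV2C 1.19 after thinning (2.83). STXBP5L in microglia fell to 0.94 after thinning and SV2B to 0.70 (1.68 and 1.07). Depth limits the smaller glial classes, of which microglia held 365394 UMIs in all.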

Other observations

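Small classes at the ventricle and the vessels, which entered no comparison above, had their own leading members. In 795 ependymal cells RAB36 had 114 CPM (97.4 to 131), SYT10 93.6 CPM (79.0 to 110), SV2C 55.8 CPM (44.7 to 68.8), STX2 160 CPM and STXBP4 255 CPM. SYT10 and SV2C, which split neuron sub-clusters, were thus seen outside neurons, and both were near the same level in the 3 barcode sets (88.7, 95.7 and 96.9 CPM for SYT10, and 48.1, 56.7 and 63.9 CPM for SV2C). In 133 endothelial cells STX3, a syntaxin of apical membranes, had 217 CPM (168 to 275), UNC13B 301 CPM (243 to 369) and SNAP23, the widespread relative of SNAP-25, 162 CPM (120 to 213). SYT15 had 6 UMIs in endothelial cells (19.4 CPM) and 0.1 CPM or less in each other class. In 173 mural cells VAMP5, a VAMP of muscle, had 67.7 CPM (41.4 to 105), next to 19.4 CPM in endothelial cells. The summed CPM of the 12 neuronal genes was 765 in ependymal cells, 764 in endothelial cells and 982 in mural cells. These genes were chosen after their values were seen.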
